A study of Mus musculus with 2 samples.

Results

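The nuclei described here were chosen by their own counts of 8 genes and carry the working name Ror2, Sgcd and Tcf7l2 GABA neurons. Each had a UMI (a counted RNA molecule) of at least 5 of Sgcd, Ror2, Gm30382, Gfra1, 4930587E11Rik, Cntn3, Tcf7l2 and F730043M19Rik and no UMI of Tac2, and carried ARC hashtag UMIs at 0.8 or more times its PVH hashtag UMIs. Of 11409 barcodes in the matrix, 10170 had over 800 and under 5000 genes detected, no more than 12000 UMIs and a mitochondrial share of 1% or less. Of these, 4395 lay on the ARC side and 269 of the 4395 were members, a share of 6.12% (exact 95% binomial interval 5.43 to 6.87%). The other 4126 ARC-side nuclei served as the comparison.

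The nuclei came from tissue labelled as the arcuate nucleus of the hypothalamus (ARC). The mice were male C57BL/6J wild type aged 10 to 12 weeks, with no treatment given in the labels. The study names 6 mice for this material. They were pooled into 1 gene expression library with 1 library of hashtags, the antibody-borne barcodes that mark a nuclear preparation. The hashtags did not separate the mice, so neither the spread between animals nor the share of any 1 animal can be read, and no test was made across nuclei. The sort took nuclei stained for NeuN, a neuronal protein, which limits the material to neurons and to what passed with them. The study placed clusters that expressed Nr5a1 in the adjacent ventromedial hypothalamus, so not all of the tissue was arcuate. The labels name only ARC and do not explain the hashtag that the matrix names PVH. The 2 hashtags were unequal only by degree, with medians of 101 ARC and 80 PVH hashtag UMIs in members and 93 and 76 in the other ARC-side nuclei. Members held 1519401 UMIs in all, with a median of 4901 per nucleus (1928 to 11883), against a median of 4761.5 in the others. Levels are counts per 1000000 (CPM) of the summed UMIs of a group with exact 95% Poisson intervals, and all intervals cover counting error only. Fewer transcripts per nucleus and fewer nuclei with the transcript cannot be told apart in such a sum.

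The arcuate nucleus lies at the base of the hypothalamus and holds the AGRP and POMC neurons that control hunger, together with dopaminergic, KNDy and further GABAergic neurons that are less well described. GABAergic neurons there carry the vesicular transporter Slc32a1 and the synthetic enzymes Gad1 and Gad2, and glutamatergic ones the vesicular transporter Slc17a6. Many arcuate neurons read circulating signals, among them oestrogen, progesterone, prolactin, leptin and growth hormone, through receptors encoded by Esr1, Pgr, Prlr, Lepr and Ghr. Of the genes in the rule, Ror2 encodes a receptor for WNT5A and Tcf7l2 the DNA-binding factor through which β-catenin acts, so both belong to Wnt signalling. Gfra1 encodes the co-receptor of the neurotrophic factor GDNF, Sgcd the delta subunit of the sarcoglycan complex that sits beside dystrophin, and Cntn3 a contactin, an adhesion protein of the immunoglobulin family. The remaining 3 are long non-coding RNA genes.

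The 8 genes lie at 7 places in the genome (GRCm38, GENCODE M21). Sgcd spans chr11:46896253-47988969 on the minus strand, Ror2 chr13:53109312-53286124 on the minus strand, Gfra1 chr19:58235604-58455909 on the minus strand and Tcf7l2 chr19:55741820-55933654 on the plus strand. The gene 4930587E11Rik lies on the plus strand at chr6:102266100-102336674, wholly inside Cntn3, which runs on the minus strand at chr6:102162655-102573101. No source used here says whether the counting used the strand, so the values of this pair may not be independent. The same holds for Gm5149 inside Gm30382 on chromosome 3 and for Gm16267 inside F730043M19Rik on chromosome 12, of which Gm5149 and Gm16267 were not in the rule.

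Because the product of Tcf7l2 binds a known motif and its gene was used to choose these nuclei, the 250 bases before each RefSeq start site of the rule genes (GRCm38.p6) were searched for CTTTGA or CTTTGT on either strand. All 8 genes had a window, and Tcf7l2 had more than 1, which gave 9 windows. A match was found in 4 of the 9, beside 27.6% of 32851 windows of the same length over all genes. The windows before Sgcd, Ror2 and the downstream start of Tcf7l2 are printed on the strand of the gene, with the matched letters, or their reverse complement, in capitals. They lie at chr11:47379326-47379575 on the minus strand, chr13:53286125-53286374 on the minus strand and chr19:55895071-55895320 on the plus strand.
Sgcd: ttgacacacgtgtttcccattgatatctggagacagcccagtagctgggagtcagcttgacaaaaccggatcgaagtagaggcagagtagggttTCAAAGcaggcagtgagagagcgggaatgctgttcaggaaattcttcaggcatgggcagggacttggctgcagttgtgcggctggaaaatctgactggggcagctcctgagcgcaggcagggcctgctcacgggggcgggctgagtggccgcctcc
Ror2: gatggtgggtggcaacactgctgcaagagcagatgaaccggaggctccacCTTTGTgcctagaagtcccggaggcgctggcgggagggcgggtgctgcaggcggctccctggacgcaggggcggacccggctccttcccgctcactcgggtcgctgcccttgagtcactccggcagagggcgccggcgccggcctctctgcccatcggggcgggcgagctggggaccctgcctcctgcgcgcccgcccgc
Tcf7l2: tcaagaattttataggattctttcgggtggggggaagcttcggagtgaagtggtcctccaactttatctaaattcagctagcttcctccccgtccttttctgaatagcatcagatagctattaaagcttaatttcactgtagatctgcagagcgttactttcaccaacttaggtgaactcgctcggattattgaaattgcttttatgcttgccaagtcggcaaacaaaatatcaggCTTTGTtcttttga
The RefSeq start of Sgcd lies inside the longer GENCODE gene, so its window, like the downstream one of Tcf7l2, is within the gene span given above. Each of these windows held 1 match, as did the one before Gm30382, and the letters in a window do not show that the factor was bound there.

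The number of rule genes per ARC-side nucleus fell off with no gap at the threshold. From 0 to 8 rule genes the counts were 765, 1203, 1068, 679, 387, 181, 84, 24 and 4 nuclei, of which 24 nuclei with at least 5 genes had a Tac2 UMI and were left out. Just inside the threshold, the 166 members with 5 rule genes had 1428 CPM of Sgcd and 103 CPM of Ror2. Just outside it, the 356 nuclei with 4 rule genes and no Tac2 UMI had 1070 CPM of Sgcd and 72.8 CPM of Ror2. Tcf7l2 was at 90.4 CPM inside and 69.0 CPM outside. These values follow from the rule and are given as a description only.

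The levels of the 8 genes describe the choice and are not a finding. Summed over members and over the other ARC-side nuclei, Sgcd was at 1595 and 422 CPM, Cntn3 at 651 and 211 CPM, Gfra1 at 381 and 96.0 CPM, and Gm30382 at 327 and 75.7 CPM. The 4 lower genes were 4930587E11Rik with 214 and 40.3 CPM, Ror2 with 149 and 25.3 CPM, F730043M19Rik with 128 and 27.8 CPM, and Tcf7l2 with 124 and 37.1 CPM. Per member nucleus, Sgcd ranged from 0 to 32 UMIs with a median of 8, Cntn3 from 0 to 18 with a median of 3, and Gfra1 from 0 to 10 with a median of 2. Ror2 (0 to 7), Tcf7l2 (0 to 4) and F730043M19Rik (0 to 6) had a median of 0. So although Ror2 and Tcf7l2 give the nuclei their name, most members had no UMI of Ror2, and most had none of Tcf7l2. The share that lacked both was not computed.

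A UMI of Sgcd was present in 98.9% of members, of Ror2 in 43.5% and of Tcf7l2 in 113 of 269, and in 44.3%, 7.68% and 9.91% of the others. After each nucleus was thinned to 1000 UMIs, Sgcd was present in 72.1% of members and 22.6% of the others, Ror2 in 13.4% and 2.23%, and Tcf7l2 in 10.8% of members. Cluster 15 held 34 nuclei with few neuronal transcripts and a median of 2572.5 UMIs. Of these, 38.2% had a UMI of Sgcd and 5.88% one of Ror2. For Gfra1 the share was 0%, where 0 of 34 allows up to 10.3%. Tcf7l2 was present in 50.0% of these non-neuronal nuclei, so a Tcf7l2 UMI does not mark the neurons by itself. After thinning, Sgcd was present in 14.7% of cluster 15, beside the 22.6% of the other ARC-side nuclei. Its level in cluster 15 was 252 CPM (165 to 370), above the 48.2 CPM of cluster 13 (34.1 to 66.2). The shares in cluster 15 are thus no measure of stray RNA, and the source of these UMIs was not tested.

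Leaving each gene in turn out of its own choice, with a looser threshold, gave a smaller contrast. The groups so chosen held from 300 nuclei (Sgcd) to 542 (Ror2 and F730043M19Rik), with 534 for Tcf7l2, in place of 269. Leaving the gene out and the looser choice thus cannot be told apart. With nuclei chosen on at least 4 of the other 7 genes, Sgcd was still 3.32-fold higher than in the remaining ARC-side nuclei (3.17 to 3.47), 4930587E11Rik 2.82-fold (2.47 to 3.21), Ror2 2.67-fold (2.27 to 3.12) and Cntn3 2.57-fold (2.40 to 2.76). Gm30382 was 2.45-fold, Gfra1 2.38-fold and F730043M19Rik 2.08-fold higher. Tcf7l2 was 1.52-fold higher (1.29 to 1.79), the smallest ratio of the 8. Cntn3 and 4930587E11Rik were each chosen with the other still in use.

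To ask whether the members form 1 population, the ARC-side nuclei were clustered with the 8 genes and Tac2 removed from the genes used. Of 15 clusters, 1 gathered most of them. Cluster 5 held 302 nuclei, of which 164 were members (54.3%, 48.5 to 60.0%), so that 61.0% of all members lay in it (54.9 to 66.8%). The same 302 nuclei came together at a higher resolution, and a cluster made with the 8 genes in use held 166 members. Outside the rule genes its leading genes were Sema5b, Slitrk2, Mamdc2, Npy5r, Man1a, Sv2b, Eda, Tmem200a, Sv2c and Sytl5. The other 138 nuclei of cluster 5 missed the rule but had high levels of several of its genes, with 2266 CPM of Sgcd (members of the cluster 2395), 766 CPM of Cntn3 (821) and 281 CPM of Gfra1 (508).

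The other 105 members, 39.0% of the total, were spread over further clusters and made up 2.57% of the ARC-side nuclei there (2.10 to 3.10%). Cluster 7 held 24 of them, cluster 2 held 23, cluster 12 held 15 and cluster 8 held 13, with 8 or fewer in each of the rest. The leading genes of cluster 2 included Mobp and Mog, oligodendrocyte markers, and Pdgfra, a marker of their precursors. The neuronal gene Syt1 was at 1326 CPM in cluster 2. The 105 members outside cluster 5 were deeper, with a median of 6931 UMIs against 4509.5 for members in cluster 5. Outside cluster 5 the share of nuclei that passed the rule was 0.557% below 4000 UMIs, 1.46% from 4000 to below 6000 and 7.18% from 6000 on. In cluster 5 it was 44.3%, 58.9% and 66.7% over the same ranges. Hashtag doublets, nuclei positive for both hashtags by HTODemux, made up 18.1% of members outside cluster 5 (11.3 to 26.8%), 0.610% of members in it (0.0154 to 3.35%) and 5.82% of the non-members outside it. Depth and doublets thus moved with membership outside the cluster, and their part in it was not tested.

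**Figure D1:**
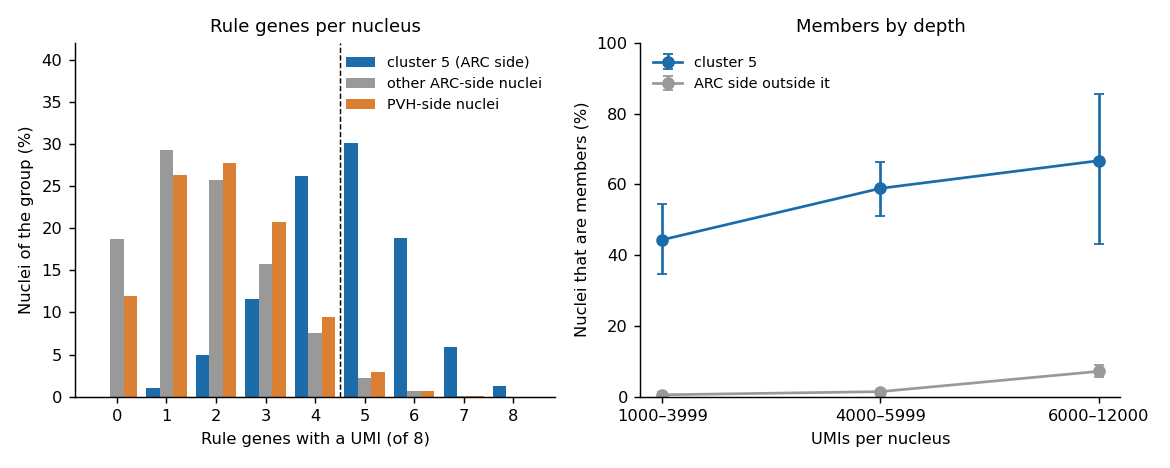
Left, share of nuclei (%) by the number of rule genes with a UMI, for cluster 5, the other ARC-side nuclei and the PVH-side nuclei, with the threshold dashed. Tac2 is not used in this panel. Right, share of nuclei that are members (%) by UMIs per nucleus, with exact 95% binomial intervals, which stays between 44.3% and 66.7% in cluster 5 and goes from 0.557% to 7.18% outside it.

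Nuclei of cluster 5 carried 4.67 of the 8 genes on average, followed by 2.98 in cluster 7 and 2.94 in cluster 12. Sgcd was at 2340 CPM in cluster 5 (2258 to 2423), followed by 1724 CPM in cluster 14 (1570 to 1890), led by Stxbp6 and Kcnh1, and 1565 CPM in cluster 8, where Tac2 was highest. Ror2 was higher in cluster 8, at 177 CPM (154 to 202), than in cluster 5 at 145 CPM (126 to 167), but these intervals overlapped. Tcf7l2 was at 139 CPM in cluster 5, 158 CPM in cluster 6 and 379 CPM in the non-neuronal cluster 15, and at 8.07 CPM in cluster 8. Gfra1, at 411 CPM in cluster 5, was next highest in cluster 7 at 301 CPM, and these intervals lay apart. Cntn3 was at 798 CPM in cluster 5 and 547 CPM in cluster 7. Ror2 and Sgcd were thus shared with cluster 8, and Gfra1 and Cntn3 with cluster 7.

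**Figure D2:**
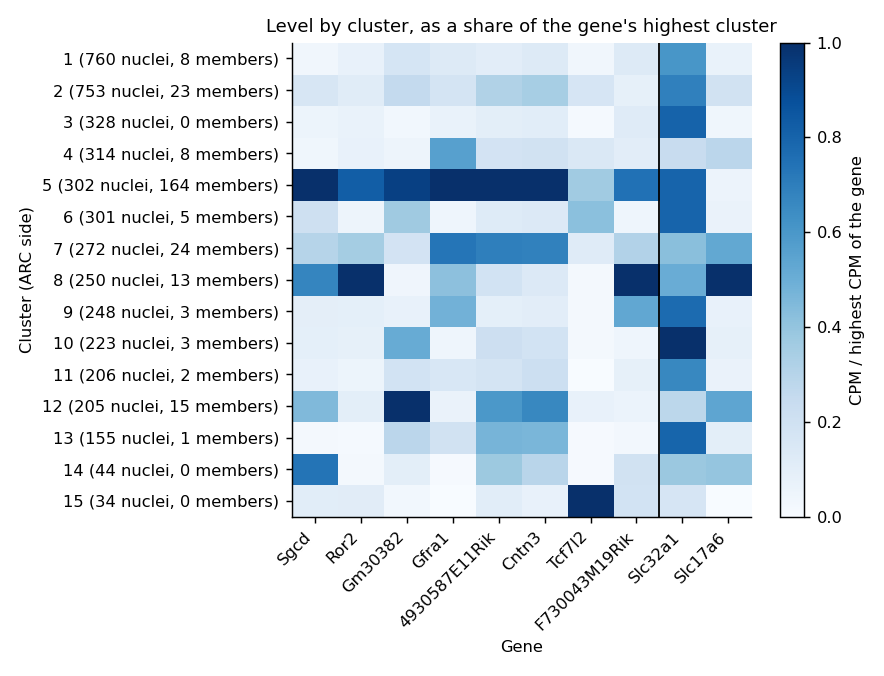
Level of each rule gene and of Slc32a1 and Slc17a6 (columns) in each of 15 ARC-side clusters (rows, with nuclei and members), as CPM divided by the gene's highest CPM over the clusters. Cluster 5, with 164 of 302 nuclei as members, is dark for 7 of the 8 rule genes, and the last, Tcf7l2, is darkest in cluster 15.

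The label GABA held for the members in cluster 5 and not for the whole set. What set the members in cluster 5 apart was low Slc17a6, with a ratio of 0.112 to the non-members outside it. Slc32a1, Gad1 and Gad2 had ratios of 1.24 to 1.69 in that comparison, none past the fold. Over all members Slc32a1 was at 34.9 CPM (26.1 to 45.6) against 37.2 CPM in the others, and Slc17a6 at 52.0 CPM (41.2 to 64.8) against 46.0 CPM, so neither vesicular transporter set the members apart. Gad1 was at 84.9 and 62.2 CPM and Gad2 at 120 and 127 CPM. Split by cluster, Slc17a6 was at 5.24 CPM in members in cluster 5 (1.43 to 13.4) and at 99.2 CPM in members outside it (78.1 to 124). Slc32a1 was at 47.1 CPM (33.0 to 65.3) and 22.5 CPM (13.1 to 36.0) in the same groups. A UMI of Slc17a6 was seen in 2.44% of members in cluster 5, and in 40.0% of the deeper members outside it. The summed level of Slc32a1, Gad1 and Gad2 was 308 CPM in members in cluster 5, 296 CPM in the other nuclei of that cluster and 171 CPM in members outside it. Among clusters, Slc17a6 was at 219 CPM in cluster 8, 117 CPM in cluster 12 and 115 CPM in cluster 7, which together held 52 of the 105 members outside cluster 5.

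**Figure D3:**
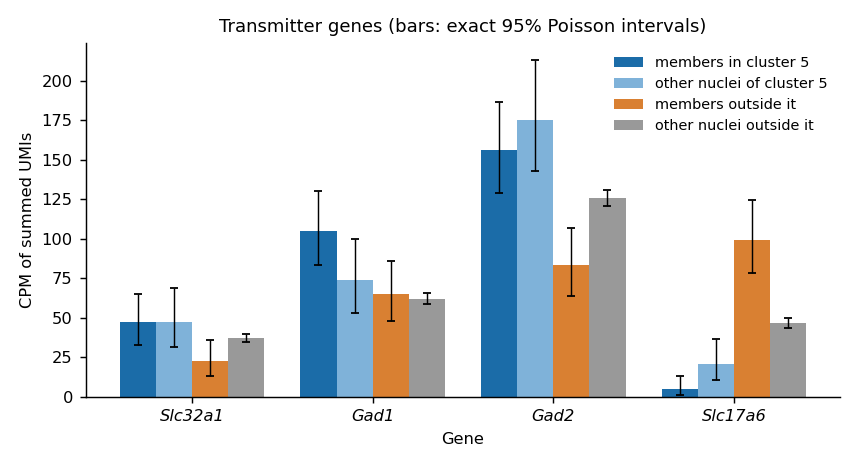
CPM of Slc32a1, Gad1, Gad2 and Slc17a6 summed over members in cluster 5, the other nuclei of that cluster, members outside it and the other ARC-side nuclei, with exact 95% Poisson intervals. Slc17a6 is lowest in members in cluster 5 (5.24 CPM) and highest in members outside it (99.2 CPM).

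As a group the members were neuronal by their markers. The summed level of Snap25, Syt1, Elavl4, Tubb3 and Rbfox3 was 2429 CPM in members and 2240 CPM in the others. Markers of microglia summed to 139 CPM in members and 136 CPM in the others, those of astrocytes to 37.5 and 34.0 CPM, and those of endothelial cells and pericytes to 11.8 and 9.44 CPM, with Cldn5, Flt1 and Rgs5 at 0 in members. Oligodendrocyte markers summed to 92.1 and 158 CPM, those of their precursors to 7.24 and 14.9 CPM, those of tanycytes to 84.2 and 118 CPM and those of the pars tuberalis to 65.2 and 76.3 CPM. Split by cluster, members in cluster 5 and outside it had 160 and 118 CPM of microglial, 64.2 and 120 CPM of oligodendrocyte and 0 and 14.6 CPM of precursor markers, where a count of 0 allows up to 4.83 CPM. The part of such RNA in the results was not tested. Kiss1, which with Tac2 defines KNDy neurons, had no UMI in members (up to 2.43 CPM), and Tac2 was at 0 by the rule. The KNDy list of Tac2, Kiss1, Pdyn, Tacr3 and Esr1 summed to 242 CPM in members and 144 CPM in the others. It summed to 319 CPM in members in cluster 5 and 164 CPM in members outside it. Of its 2 genes tested, Esr1 was 2.03-fold higher in members and Tacr3 lower, with a ratio of 0.458. Pdyn, under the limit for testing, is given at the end. Markers of the neighbouring ventromedial nucleus (Nr5a1, Fezf1, Gpr149, Adcyap1 and Bdnf) summed to 47.4 CPM in members and 28.2 CPM in the others, with 30.1 CPM in members in cluster 5, where Nr5a1 and Fezf1 had no UMI, and 64.8 CPM in members outside it, where all 5 genes had one. Gpr149, the only one of them tested, was 2.21-fold higher in members (1.62 to 2.96) and 1.68-fold in members of cluster 5. Neuropeptide genes were read against all 11799 genes tested (those with at least 10 UMIs expected in members), of which 0.754% were 2-fold or more higher in members and 2.34% lower. Of 19 neuropeptide genes tested 0 were higher and 0 lower, counts that lie near those shares. In members of cluster 5 against the non-members outside it, 1 of 17 tested was lower (5.88%, beside 5.47% of all genes). It was Ghrh, the growth hormone-releasing hormone gene, with a ratio of 0.313. Agrp, at 163 CPM in members and 178 CPM in the others, had a UMI in 53.5% of both groups. It was found in all 15 clusters, from 108 CPM in cluster 12 to 301 CPM in the non-neuronal cluster 15. An Agrp UMI thus does not mark an AGRP neuron by itself, and the source of these UMIs was not tested.

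Among 11799 genes with at least 10 UMIs expected in members, 89 were 2-fold or more higher in members (0.754%) and 276 were at 0.5 or less of the level in the others (2.34%). Without the rule genes and Tac2, 81 higher and 275 lower genes were left. Expected UMIs came from the level over both groups, so UMIs in members counted towards the limit of 10. From the level of the others alone, Sema5b and Sytl4 would have been under it. The rest of the 81 higher genes were not checked for this. The 20 that lay furthest above by the near bound of their interval included adhesion and guidance genes. Sema5b, a semaphorin, was at 24.4 CPM in members and 6.28 CPM in the others, a ratio of 3.88 (2.62 to 5.62). Slitrk2, a synaptic adhesion protein, was 3.87-fold higher (2.65 to 5.53) and Mamdc2, a secreted proteoglycan, 3.39-fold (2.68 to 4.25). Hs3st5, which adds sulphate to heparan sulphate chains, was at 734 and 301 CPM, a ratio of 2.44 (2.29 to 2.60). Genes of the vesicle and the synapse were Sytl4, a vesicle-docking protein, with a ratio of 3.75 (2.51 to 5.50), Sv2c, a synaptic vesicle glycoprotein, with 2.56 (2.27 to 2.88), and Glra3, the glycine receptor α3 subunit, with 2.72 (2.42 to 3.05). The remaining genes were Gm5149, Gm15680, Adarb2, Eda, Tmem266, Shisal2a, Npy5r, Ryr3, Pgr, Man1a, Brinp2, Greb1 and Gm16267, with ratios of 2.35 to 3.59. Gm5149 and Gm16267 lie within other genes and Gm15680 overlaps Cdh8 on the same strand, so these 3 genes may share reads with their neighbours.

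By their median ratio, these genes stood higher in the nuclei of cluster 5 that missed the rule than in the members outside the cluster. In members of cluster 5 set against the non-members outside it, 156 of 9772 genes were higher (1.6%) and 535 lower (5.47%). Of the 81 higher genes, all 81 had a ratio above 1 there with a median of 3.12, and 51 of the 54 that could be tested were called. In the 138 nuclei of cluster 5 that missed the rule, 76 of the 81 had a ratio above 1 with a median of 2.54, and 39 of 43 tested were called, where 1.26% of all genes tested were higher and 5.02% lower. In the 105 members outside cluster 5 the median was 1.70 and 11 of 53 tested were called, with 15 of the 20 named genes under 2-fold, where 0.339% of all genes were higher and 1.61% lower. Between members in and outside cluster 5, 321 of 9785 genes were higher in the cluster (3.28%) and 440 lower (4.5%). Npy5r was at 187 CPM in members of cluster 5, 202 CPM in its other nuclei and 68.8 CPM in members outside it. Sytl4 was at 38.0, 38.6 and 7.94 CPM, and Sv2b, a further synaptic vesicle gene past the fold, at 87.7, 111 and 26.5 CPM. Since the cluster was built on genes of the same nuclei, these ratios describe it and test nothing.

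**Figure D4:**
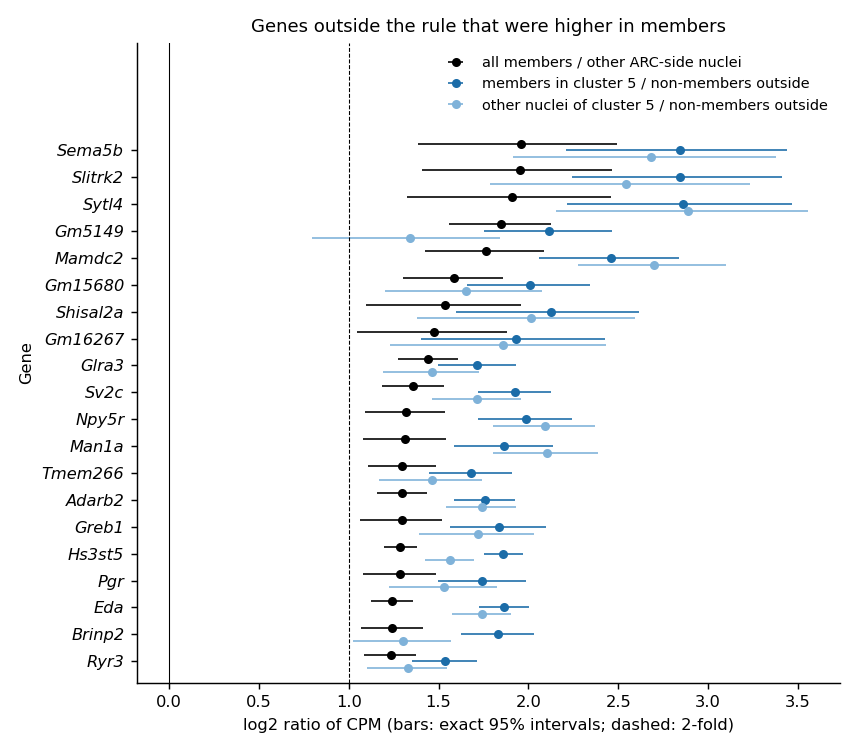
log2 ratio of CPM for the 20 named genes that lay above the other nuclei, with 95% counting intervals, for all members, for members in cluster 5 and for the other nuclei of cluster 5. The dashed line marks 2-fold, and all 20 genes lie above it in each of the 3 comparisons.

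Receptors for reproductive and feeding signals were the named list with the most higher genes. Of 36 hormone and nutrient receptor genes tested, 6 were higher in members (16.7%, beside 0.754% of all genes), and the same 6 were higher in members of cluster 5, namely Pgr, Esr1, Prlr, Npy5r, Npy1r and Hcrtr2. Pgr, the progesterone receptor gene, was at 157 CPM in members (138 to 179) and 64.6 CPM in the others, with a ratio of 2.44 (2.11 to 2.80). Esr1, the oestrogen receptor α gene, was at 221 and 109 CPM with a ratio of 2.03 (1.81 to 2.28), and Greb1, a gene known for its response to oestrogen, at 126 and 51.5 CPM with a ratio of 2.45 (2.09 to 2.86). Prlr, the prolactin receptor gene, was at 217 and 104 CPM, a ratio of 2.09 (1.85 to 2.34). For neuropeptide Y, Npy5r had a ratio of 2.49 (2.13 to 2.90) and Npy1r one of 2.01 (1.42 to 2.77), while Npy2r was lower, with 0.357 (0.230 to 0.531). Hcrtr2, the orexin receptor 2 gene, was at 113 and 50.6 CPM, a ratio of 2.22 (1.88 to 2.62). With at least 4 rule genes required in place of 5, the log2 ratios of Esr1, Prlr, Npy1r and Hcrtr2 were 0.79, 0.80, 0.90 and 0.90, all under 2-fold. With ARC hashtag UMIs at 2 or more times the PVH hashtag UMIs they were 0.81, 0.73, 0.60 and 0.70. Pgr (1.14 and 1.15) and Npy5r (1.09 and 1.00) stayed at 2-fold or more under both, Npy5r only just so with the stricter hashtag limit. In the members outside cluster 5, against the non-members outside it, their log2 ratios were 0.82 and 0.54, both under 2-fold.

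In members of cluster 5 the same genes stood higher still, with Pgr at 206 CPM, Esr1 at 300 CPM, Prlr at 261 CPM, Npy5r at 187 CPM and Hcrtr2 at 143 CPM. The nuclei of cluster 5 outside the rule had similar levels, with 177 CPM of Pgr, 258 CPM of Esr1 and 244 CPM of Prlr. None of these receptors was highest in cluster 5 beyond counting error. Pgr was at 193 CPM in cluster 5 and 166 CPM in cluster 9, and Npy5r at 193 CPM in cluster 5 and 167 CPM in cluster 4, where Pomc was highest, in both cases with overlapping intervals. Esr1 was at 282 CPM in cluster 5 and 486 CPM in cluster 8, and Prlr at 253 CPM in cluster 5 and 430 CPM in cluster 11, with intervals that lay apart.

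Other receptor genes of the list were lower. The 8 lower ones (22.2%, beside 2.34% of all genes) were Ghr, Calcr, Npy2r, Tacr1, Tacr3, Crhr2, Glp1r and Trhr. Ghr, the growth hormone receptor gene, was at 210 CPM in members and 443 CPM in the others, a ratio of 0.474 (0.422 to 0.530), and was at 113 CPM in members of cluster 5 and 308 CPM in members outside it. Calcr, the calcitonin receptor gene, had a ratio of 0.380 (0.242 to 0.569). Crhr2, Glp1r, Tacr3 and Trhr rested on 3 to 6 UMIs in members, and the interval for Tacr3 ran past 1 (0.166 to 1.02). Lepr, the leptin receptor gene, was at 26.3 and 45.6 CPM, with a ratio of 0.578 (0.410 to 0.793) that missed the fold, and at 13.1 CPM in members of cluster 5. Insr, the insulin receptor gene, was at 94.8 and 91.0 CPM, a ratio of 1.04 (0.873 to 1.23).

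**Figure D5:**
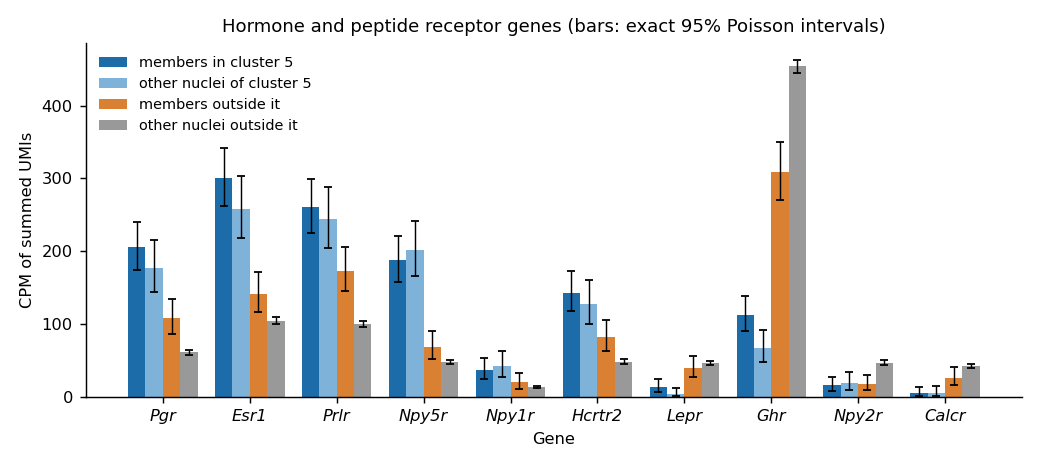
CPM of 10 hormone and peptide receptor genes in members in cluster 5, the other nuclei of that cluster, members outside it and the other ARC-side nuclei, with exact 95% Poisson intervals. Pgr, Esr1, Prlr, Npy5r and Hcrtr2 are high in both groups of cluster 5, where Ghr, Calcr and Lepr are low.

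For the partners of the rule genes, counts stand beside 0.754% of all genes higher and 2.34% lower, shares at which lists of this size give few calls or none. Of the Wnt lists, 0 of 6 ligand genes tested, 0 of 6 other receptor genes, 0 of 8 inhibitor genes, 0 of 20 cytoplasmic genes and 0 of 11 other nuclear factor genes were higher, and 1, the co-repressor gene Tle3, was lower. In the GDNF family 3 genes were tested besides Gfra1. Ncam1, an alternative receptor for GDNF, was at 679 CPM in members and 686 CPM in the others. Gfra2, the co-receptor of neurturin, was at 29.6 and 60.7 CPM with a ratio of 0.488 (0.354 to 0.657), and Sorl1 had a ratio of 0.425 (0.241 to 0.697). Ret, the kinase through which GFRA1 signals, had 6 UMIs in members and was under the limit for testing. In the dystrophin and sarcoglycan complex 0 of 22 genes besides Sgcd were higher and Lama2 was lower. Utrn, the dystrophin relative utrophin, was at 151 and 94.4 CPM, a ratio of 1.60 (1.39 to 1.84), and was 2.11-fold higher in members of cluster 5 (1.78 to 2.50). Among 23 contactins and partners besides Cntn3, Alcam, an adhesion protein of the immunoglobulin family, was 2.18-fold higher (2.00 to 2.38), and Cntn5 was at 438 and 1267 CPM, a ratio of 0.346 (0.319 to 0.373).

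Several transcription factor genes were lower in members. Of 53 tested, 9 were lower (16.98%, beside 2.34% of all genes), namely Lhx1, Otp, Rarb, Rorb, Rxrg, Satb1, Six3, Six6 and St18. In members of cluster 5, 23 of 45 were lower (51.1%, beside 5.47% of all genes), with a median ratio of 0.477 against 1.02 over all genes tested. Tbx3 and Isl1, factors of arcuate neurons, were at 55.3 and 39.9 CPM and at 159 and 128 CPM in members and the others, neither past the fold.

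In the lists of ion channels, receptors, adhesion and guidance genes, calls were few in number, and they are read beside the 0.754% higher and 2.34% lower of all genes. Of 53 potassium channel genes 0 were higher and 3 lower (Kcnk9, Kcnmb2 and Kcnq5), and of 33 calcium and sodium channel genes 0 were higher and 2 lower (Cacna1i and Cacng5). Of 17 GABA-A and glycine receptor subunit genes Glra3 was higher and Glra2, the glycine receptor α2 subunit gene, lower, with a ratio of 0.375 (0.234 to 0.572). None of 16 ionotropic and 7 metabotropic glutamate and GABA-B receptor genes was past the fold. Of 15 monoamine and acetylcholine receptor genes, 2 were higher (13.3%) and 2 lower (13.3%), shares above those of all genes. Adrb1, the β1 adrenergic receptor gene, was 2.44-fold higher (1.51 to 3.79) and Htr2a, a serotonin receptor gene, 2.28-fold higher (1.51 to 3.32). Adra1a, the α1A adrenergic receptor gene, had a ratio of 0.233 (0.140 to 0.366). Chrna9, a nicotinic receptor subunit gene with 2 UMIs in members, had one of 0.186 (0.0223 to 0.682). Of 28 cadherins Cdh8 was higher, with 2.24 (2.01 to 2.48). Of 52 axon guidance genes Sema5b and the netrin receptor gene Unc5b were higher (3.85%) and 3 were lower (5.77%), namely Epha3, Sema3c and Sema6d. Sema5b reached the limit of 10 expected UMIs only with the UMIs in members counted, and the other higher genes of these lists were not checked for this. Unc5b had a ratio of 2.25 (1.82 to 2.77), but among the 40 members with ARC hashtag UMIs at 2 or more times the PVH hashtag UMIs its log2 ratio was -0.35. Of 10 transmitter genes 2 were lower, Th and Chat, on 6 and 3 UMIs.

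The 10 genes furthest below the others were Corin, Fli1, Lmo7, Vit, Adra1a, Cntn5, Hmcn1, Adam12, Adamtsl3 and Pdgfd. Corin, a serine protease gene that is a marker of AGRP neurons, was at 5.27 CPM in members (2.27 to 10.4) and 42.9 CPM in the others. Hmcn1, an extracellular matrix gene, was at 5.92 and 26.5 CPM and Adam12, a metalloprotease gene, at 13.8 and 49.5 CPM. Vit had no UMI in members (up to 2.43 CPM) and was at 7.24 CPM in the others. Cntn5 was the most abundant of the 10, with 665 UMIs in members, and had a UMI in 39.6% of members in cluster 5 and 64.8% of members outside it.

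On the PVH side of the hashtag rule, 200 of 5775 nuclei passed the same gene rule (3.46%, 3.01 to 3.97%). Set against the other PVH-side nuclei, 24 of 11304 genes were 2-fold or more higher in them (0.212%) and 100 were lower (0.885%). Of the 81 genes that were higher in members, 64 could be tested there and 1 was called, 66 had a ratio above 1, and the median ratio was 1.20. When all 10170 nuclei were clustered together, the cluster that held most members had 525 nuclei, of which 89.3% were on the ARC side. It held 301 of the 302 nuclei of cluster 5 and 188 members, and 23 of the 200 PVH-side nuclei (11.5%, 7.43 to 16.8%). Npy5r was at 29.3 CPM in the PVH-side nuclei that passed and 23.4 CPM in the other PVH-side nuclei, so the gene rule did not bring out the same further genes there.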

How the data were processed

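Single-nucleus RNA was measured in 1 pooled gene expression library and its hashtag library. The values the authors deposited are counts (UMIs of each gene in each barcode), not normalized. Cell Ranger 5.0 and mm10 are named in the submitters' processing notes, and the matrix header gives Cell Ranger 4.0.0. No source used here says whether intronic or antisense reads were counted. No deposited annotation of nuclei was used.

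Filters on genes, UMIs and mitochondrial share followed the study's methods. The hashtag rule did not, since the study kept hashtag singlets only, while here nuclei were kept by the ratio of hashtag UMIs. Doublets and negatives by hashtag (HTODemux, positive quantile 0.8) stayed in, and doublets within 1 hashtag were not looked for. ARC-side nuclei were clustered with Seurat 5.3.0 (R 4.3.3, leidenbase 0.1.32, Leiden resolution 0.55, 2000 variable genes less the rule genes and Tac2, 30 components, 20 neighbours). Counts were summed per group in Python 3.11.15 with scipy 1.17.1, scaled to CPM and compared as ratios with exact binomial intervals. A gene was tested with at least 10 UMIs expected in the group from the summed level over both groups compared. It was called at 2-fold or more, or at a ratio of 0.5 or less. With 1 pooled sample, no p-value was computed. The step that compares 2 groups was tested on simulated Poisson counts with set folds. These counts held no choice of nuclei by their own genes and no spread between nuclei, so they do not cover either. Total depth on the ARC side was 22385907 UMIs, with a median of 4774 per nucleus.

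The members, gene lists and comparisons were chosen with earlier results of these data known. Genes named are the rule genes, Tac2, genes of the lists, and outside the rule the 20 with the highest and the 10 with the lowest ratio, ranked by the bound of the interval nearest to 1. Sv2b, and the placing of Greb1 beside Esr1, were chosen after the values were seen. Alternatives changed the number of rule genes, the hashtag limit, Tac2, depth, the comparison nuclei and the limits on counts and fold. Some results on transcription factor genes are not reported here.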

Additional observations from a re-analysis of the deposited data

Results flagged for a closer look

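Outside the nuclei the comparisons rest on, 200 PVH-side nuclei passed the gene rule, with a median of 5742 UMIs against 4588 in the other PVH-side nuclei. HTODemux called 25 of these 200 doublets and 126 PVH singlets. Among 274 ARC-side barcodes that the filters removed, 16 passed the gene rule, of which 15 were over the maximum of genes or UMIs and 1 over the mitochondrial maximum. Their median was 13454.5 UMIs.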

How the results depend on the processing

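The number of members was 269 as reported, 625 with at least 4 rule genes, 103 with at least 6, 40 with ARC hashtag UMIs at 2 or more times PVH hashtag UMIs, and 99 when members were chosen on 1 of 2 random parts of the UMIs. The 89 higher and 276 lower genes became 52 higher with the stricter hashtag limit, 43 higher with levels from the other random part, 58 higher with nuclei thinned to 1000 UMIs, and 174 higher against nuclei with a UMI of Slc32a1 and none of Slc17a6. With at least 2 UMIs expected they were 316 and 1143, with at least 30 expected 50 and 91, at 1.5-fold 393 and 816, and at 3-fold 16 and 62. Chosen after seeing the data, the 164 members in cluster 5 gave 156 and 535 against nuclei outside it, and the 105 members outside it 33 and 157. The remaining alternatives, among them HTODemux singlets, no doublets and nuclei of 4000 to 12000 UMIs, left both counts within 1.5 times. For 49 genes followed over the alternatives, 483 of 733 ratios moved by less than counting error, the rest but 1 moved further without a change of sign, and the 1 that changed sign was Unc5b (log2 -0.35 with the stricter hashtag limit). Of the 20 named higher genes, Sv2c, Eda, Brinp2 and Greb1 were under 2-fold with at least 4 rule genes, Greb1 and Gm16267 with the stricter hashtag limit, Sema5b and Adarb2 with the random parts, and Gm15680 and Gm16267 after thinning. Causes were not tested. No paired analysis was possible because the series holds 1 pooled library. Genes under 10 expected UMIs, as Ret and Pdyn were in members, were not among those tested, and no value here shows the spread between mice.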

Other observations

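Pdyn, the dynorphin precursor gene, was under the limit of 10 expected UMIs and was looked at after its values were seen. It had 26 UMIs in members, or 17.1 CPM (11.2 to 25.1), against 5.51 CPM in the other ARC-side nuclei, with 15.7 CPM in members of cluster 5 (8.12 to 27.5), 5.26 CPM in the other nuclei of that cluster (1.08 to 15.4) and 18.5 CPM in members outside it (10.1 to 31.1). Further vesicle genes past the fold, also picked after their values were seen, were Syt6 (53.3 and 20.3 CPM in members and the others, a ratio of 2.62), Syt2 (43.4 and 17.2 CPM, 2.52) and Sytl5 (47.4 and 20.1 CPM, 2.35). In members of cluster 5, Pcdh10, a protocadherin gene, and Grik3, a kainate receptor subunit gene with a ratio of 2.64, passed the fold, and Sox6, a transcription factor gene, was at 10.5 CPM there, 1.75 CPM in the other nuclei of the cluster and 34.6 CPM in non-members outside it. Protein-coding genes made up 83.1% of the 89 higher genes and 89.5% of the genes tested with a known type.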
